A study of Mus musculus with 6 samples.

Results

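The Lrrtm and Slitrk genes were examined as a set of 9 genes, 4 Lrrtm (Lrrtm1 to Lrrtm4) and 5 Slitrk (Slitrk1 to Slitrk5), of the 23235 genes in the deposited tables. They were chosen by symbol, and all 9 had a row with status OK in both tables. The series sequenced RNA from 6 libraries of mouse primary neurons of cortex and hippocampus, with 2 libraries each for Sp3 knockdown, HDAC2 knockdown and control. Sp3 is a transcription factor with zinc fingers that recognizes GC boxes in promoters, and HDAC2 is a class I histone deacetylase. Cultures in all 3 groups came from embryos at day 15, were kept for 17 days and had 2% B27, a culture supplement. They received 1 uM cytosine arabinoside (AraC, which blocks dividing cells) on day 5 and lentivirus with short hairpin RNAs on day 12. The control was labelled only as control. The question behind the series is whether Sp3 and HDAC2 act on shared genes. The cultures were mixed from both brain regions, and the labels name neither the hairpin sequences nor separate cultures behind the libraries, so p-values may reflect technical spread only.

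LRRTM and SLITRK proteins are membrane proteins with leucine-rich repeats outside the cell that sit mainly on the postsynaptic side and induce presynaptic differentiation in axons that touch them. LRRTM proteins act chiefly at excitatory synapses, where they bind neurexins and heparan sulfate proteoglycans and help to hold AMPA receptors. SLITRK proteins bind receptor tyrosine phosphatases of the LAR type on the axon, and SLITRK3 is known for organizing inhibitory synapses through PTPRD.

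The promoters of members that did and did not rise in Sp3 knockdown are shown because Sp3 binds the GC box. A 300-base window ran from 250 bases before to 50 bases after a start site. Windows from RefSeq on GRCm38.p6 were examined for 7 of the 9 members, with 9 windows in all. No window was examined for Lrrtm2, the member that rose most, or for Slitrk4, so the counts below leave both out. This does not say that RefSeq lacks a start site for them. Capitals mark the GC box GGGCGG, searched on both strands, and every match here lies on the strand opposite to the one printed.
Slitrk5, chr14:111675777-111676076, plus strand: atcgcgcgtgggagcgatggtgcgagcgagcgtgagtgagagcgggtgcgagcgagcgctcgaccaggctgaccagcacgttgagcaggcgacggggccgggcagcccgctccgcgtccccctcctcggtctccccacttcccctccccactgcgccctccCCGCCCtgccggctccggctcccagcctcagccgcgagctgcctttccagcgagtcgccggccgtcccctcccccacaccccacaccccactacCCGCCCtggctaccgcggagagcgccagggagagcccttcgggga
Slitrk1, chr14:108914190-108914489, minus strand: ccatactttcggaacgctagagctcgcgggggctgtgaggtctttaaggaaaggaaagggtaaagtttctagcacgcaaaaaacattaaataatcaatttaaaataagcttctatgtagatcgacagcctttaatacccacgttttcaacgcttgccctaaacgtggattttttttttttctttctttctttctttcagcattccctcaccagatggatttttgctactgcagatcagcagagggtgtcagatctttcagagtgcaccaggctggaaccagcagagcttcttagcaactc
Slitrk2, second window, chrX:66652909-66653208, plus strand: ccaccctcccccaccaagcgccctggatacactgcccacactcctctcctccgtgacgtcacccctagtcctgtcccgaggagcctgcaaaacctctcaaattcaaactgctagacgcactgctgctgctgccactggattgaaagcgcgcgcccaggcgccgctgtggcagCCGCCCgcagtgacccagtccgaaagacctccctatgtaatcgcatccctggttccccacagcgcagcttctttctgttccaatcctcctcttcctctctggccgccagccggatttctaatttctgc
Lrrtm1, chr6:77242227-77242526, plus strand: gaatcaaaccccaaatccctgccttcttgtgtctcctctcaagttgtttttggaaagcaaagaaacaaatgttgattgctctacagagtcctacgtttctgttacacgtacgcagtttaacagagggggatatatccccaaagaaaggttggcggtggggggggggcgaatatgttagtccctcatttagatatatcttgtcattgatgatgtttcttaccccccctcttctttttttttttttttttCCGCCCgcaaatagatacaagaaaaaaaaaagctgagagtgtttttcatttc
The box occurred in 3 of the 9 member windows, against 35.7% of all 32851 windows in the table. Slitrk5, the member window richest in G and C (74.3%, against a median of 52.7% over all windows), held 2 boxes, while Slitrk1, at 42.3%, held 0. The first Slitrk2 window and the windows of Slitrk3, Lrrtm3 and Lrrtm4 held 0. The longer box GGGGCGGGG was in 0 of the 9 windows (11.4% of all windows, including those counted for the shorter box), and TATAAA was in 1, of Lrrtm4 (13.6% of all windows). The last 50 bases of the windows of Slitrk1, Lrrtm1 and Slitrk3 are in 0 of the transcripts that GENCODE M21 gives for those genes, so these windows may not lie at a start annotated there. A missing match says only that these letters are not in the window.

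The tables give 1 FPKM value per group (fragments scaled by transcript length and by sequencing depth) and no value per library, so levels can be compared between genes but carry no spread, and read depth is unknown. Errors below are standard errors of log2 fold changes implied by the authors' test statistic, and intervals are 95% intervals made from them. The targets were lower where named. In the authors' deposited table Sp3 measured 5.82 FPKM in Sp3 knockdown and 15.5 FPKM in control, and Hdac2 measured 12.3 FPKM in HDAC2 knockdown and 49.4 FPKM in control. Each target also moved in the other knockdown. Sp3 rose to 26.7 FPKM in HDAC2 knockdown (1.72-fold, q listed as 0 in the authors' deposited table), and relative to the median gene it was higher by 0.47 with an adjusted p of 3.48e-06 from the implied errors. Hdac2 fell to 38.8 FPKM in Sp3 knockdown (0.785-fold, q = 0.00598 in the authors' deposited table), a call that did not pass relative to the median gene (-0.22, with an adjusted p of 0.101). Fold changes of all genes were displaced: genes with 1 FPKM or more had a median log2 fold change of -0.13 in Sp3 and 0.32 in HDAC2 knockdown. Values are therefore also given relative to that median gene. Neuronal markers were present, with a summed level over 7 genes of 1145 FPKM in Sp3 knockdown, 842 FPKM in HDAC2 knockdown and 850 FPKM in control. Other cell types were present too: 8 astrocyte markers summed to 373, 1448 and 413 FPKM in the same order, and 12 oligodendrocyte lineage markers to 131, 445 and 226 FPKM. Microglia markers summed to 1.67, 2.31 and 1.99 FPKM.

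All 9 members were well expressed, at 10.03 to 49.0 FPKM in control. Lrrtm1, which binds neurexins, was the highest in each group, with 56.4 FPKM in Sp3 knockdown, 53.9 FPKM in HDAC2 knockdown and 49.0 FPKM in control. It made up 51.8%, 52.9% and 57.4% of the summed Lrrtm FPKM in those groups. Slitrk levels were more even. Slitrk1 was the highest Slitrk gene in Sp3 knockdown (46.8 FPKM, beside 31.8 FPKM for Slitrk4), whereas Slitrk4 was the highest in HDAC2 knockdown (46.5 FPKM, beside 33.6 FPKM for Slitrk1) and in control (32.2 FPKM, beside 27.5 FPKM for Slitrk1). In control the lowest places went to Lrrtm4 (14.97 FPKM), Lrrtm3 (11.3 FPKM) and Lrrtm2 (10.03 FPKM). Without values per library it cannot be said which neighbours in this order differ beyond their spread. Slitrk6, the remaining gene of the family and no member here, was listed at 0.491, 1.06 and 0.384 FPKM in Sp3 knockdown, HDAC2 knockdown and control and was not tested.

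**Figure D1:**
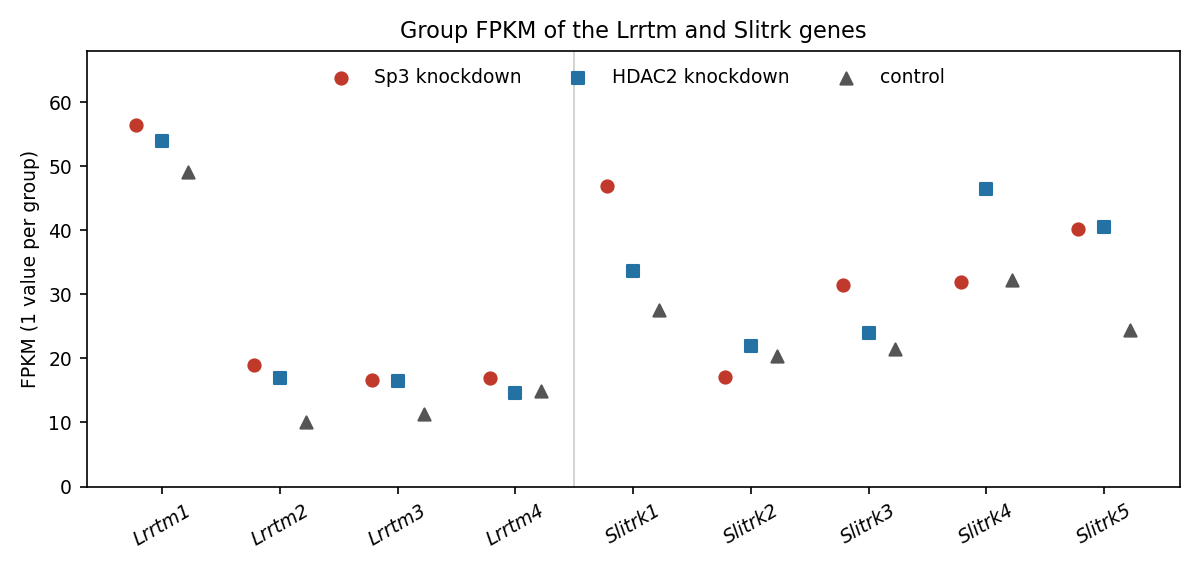
FPKM of the 9 genes (vertical axis, from 0), with 1 point per group and no error since the authors deposited 1 value per group: Sp3 knockdown (circles), HDAC2 knockdown (squares) and control (triangles). Lrrtm1 is highest in every group, and Lrrtm1, Lrrtm2, Lrrtm3, Slitrk1, Slitrk3 and Slitrk5 lie above control in both knockdowns.

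In Sp3 knockdown 5 members rose and 1 fell. Lrrtm2 rose most, to 18.9 FPKM against 10.03 in control, followed by Slitrk1, Slitrk5, Lrrtm3 and Slitrk3, and Slitrk2 fell slightly. Of all tested genes in the authors' deposited table, 13.2% rose and 26.1% fell at q under 0.05, and among the 5289 tested genes with control FPKM within the members' range 16.8% rose and 31.7% fell. On the log2 scale the median fold change was 0.55 over the 9 members and -0.11 over those genes of like level. Relative to the median gene, 7 members were higher and 0 lower at a Benjamini-Hochberg adjusted p under 0.05 from the implied errors (0 lower also at unadjusted p under 0.05). Under that rule 20.2% of all tested genes were higher and 17.6% lower. Among tested genes with control FPKM within the members' range these shares were 26.3% and 21%. In the same libraries the authors' deposited table called 3 of the 7 neuronal markers higher and 2 lower (3 and 0 relative to the median gene). Of 6 markers of GABAergic neurons it called 5 higher and 0 lower (Gad1, Gad2, Slc32a1, Sst and Npy, also higher relative to the median gene), with a summed level of 238 FPKM in Sp3 knockdown and 144 FPKM in control. The list's median relative to the median gene was 0.63, beside 0.68 for the 9 members. Of 5 markers of glutamatergic neurons it called 1 higher and 0 lower. It called 0 of 8 astrocyte markers higher and 4 lower (3 and 4 relative to the median gene), 7 of 9 tested oligodendrocyte lineage markers lower, and 5 of 5 markers of dividing cells lower. The part of these in the members' values was not tested, and in bulk RNA fewer cells of a type cannot be told apart from less RNA per cell.

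Lrrtm2, a neurexin ligand of excitatory synapses, had a 1.89-fold higher level in Sp3 knockdown (interval 1.65 to 2.16), with a log2 fold change of 0.92 ± 0.10 and q listed as 0 in the authors' deposited table. Set against the median gene, this was 1.05 ± 0.10, and 97.4% of tested genes had a lower fold change. Lrrtm3, which is also known to bind heparan sulfate, stood at 16.6 FPKM in Sp3 knockdown and 11.3 FPKM in control, a log2 fold change of 0.55 ± 0.10 (q = 5.13e-07 in the authors' deposited table). Lrrtm2 and Lrrtm3 were thus clearly above control. Lrrtm1 and Lrrtm4 lay nearer to it. Lrrtm1 gave 0.20 ± 0.11 with q = 0.133, and Lrrtm4, a partner of heparan sulfate proteoglycans, stood at 17.0 FPKM in Sp3 knockdown and 14.97 FPKM in control, giving 0.18 ± 0.086 with q = 0.0888 in the authors' deposited table. Relative to the median gene both were higher, by 0.33 with an adjusted p of 0.00613 and by 0.32 with an adjusted p of 0.00116 from the implied errors, so their call depends on the scaling.

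The Slitrk genes divided in Sp3 knockdown. Slitrk1, a regulator of neurite growth, stood at 46.8 FPKM in Sp3 knockdown and 27.5 FPKM in control, a log2 fold change of 0.77 ± 0.10 (q = 6.83e-12 in the authors' deposited table). Slitrk5, which acts in striatal circuits in mice, stood at 40.2 FPKM in Sp3 knockdown and 24.4 FPKM in control, 0.72 ± 0.11 (q = 3.72e-10 in the authors' deposited table). Slitrk3, the organizer of inhibitory synapses, stood at 31.5 FPKM in Sp3 knockdown and 21.5 FPKM in control, 0.55 ± 0.099 (q = 5.06e-07 in the authors' deposited table). These 3 genes rose by 1.46 to 1.70-fold. Slitrk4 had 31.8 FPKM in Sp3 knockdown and 32.2 FPKM in control (fold interval 0.855 to 1.14, q = 0.915 in the authors' deposited table). Slitrk2 fell to 17.1 FPKM in Sp3 knockdown, against 20.3 FPKM in control, a log2 fold change of -0.25 ± 0.062 with q = 3.52e-04 in the authors' deposited table. Relative to the median gene that fall was -0.12, with an adjusted p of 0.117.

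The Slitrk genes that did not rise are the X-linked ones. In the mm9 coordinates of the files Slitrk4 (chromosome X, 61522618 to 61530171) and Slitrk2 (63902492 to 63914577) lie 2.37 megabases apart, with 1 gene of the tables between them. Slitrk1 (chromosome 14, 109309205 to 109313456) and Slitrk5 (112074336 to 112082357) lie 2.76 megabases apart with Slitrk6 as the only gene of the tables between them, and Slitrk3 is on chromosome 3 (72852046 to 72860865). A difference of log2 fold changes between genes of the same comparison does not depend on the scaling. For all 6 pairs of an X-linked and an autosomal Slitrk gene the difference in Sp3 knockdown had an interval that left out 0, from 0.57 (Slitrk3 minus Slitrk4, 0.28 to 0.85) to 1.02 (Slitrk1 minus Slitrk2, 0.78 to 1.26). For the 4 pairs within these sets it took in 0, with sizes of 0.048 to 0.23. The sets were formed after these values were seen, the intervals are not adjusted for the 16 pairs of members examined, and errors of different genes were taken as independent. Of the 479 tested genes of the X chromosome, 15.2% rose and 22.8% fell by the authors' deposited table, close to the shares over all genes.

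The authors' deposited table called only Lrrtm2 and Slitrk5 higher in HDAC2 knockdown, and 0 members lower (0 also at unadjusted p under 0.05 by the authors' Cuffdiff test). The share of all tested genes called was 24.6% higher and 3.6% lower, so 2 of 9 is close to the background. Lrrtm2 measured 17.0 FPKM in HDAC2 knockdown and 10.03 FPKM in control (0.76 ± 0.24, q = 0.00772 in the authors' deposited table). Slitrk5 measured 40.5 FPKM in HDAC2 knockdown and 24.4 FPKM in control (0.73 ± 0.29, q = 0.0414 in the authors' deposited table). Neither passed relative to the median gene, where Lrrtm2 was 0.44 with an adjusted p of 0.212 and Slitrk5 was 0.42 with an adjusted p of 0.382. The members' median was 0.29, or -0.025 relative to the median gene. In that centred form 0 members were higher (0 at unadjusted p under 0.05) and 1, Lrrtm4, was lower, at -0.35 ± 0.11 with an adjusted p of 0.0158. The background of that rule was 10.2% higher and 7.59% lower. Among tested genes with control FPKM within the members' range it was 7.2% higher and 10.5% lower. Lrrtm4 itself had 14.6 FPKM in HDAC2 knockdown and 14.97 FPKM in control, so this call rests on the displacement of the other genes. In the same libraries 6 of 8 astrocyte markers and 9 of 12 oligodendrocyte lineage markers were higher, and 0 of the 7 pan-neuronal markers were called, by the authors' deposited table (1 higher and 0 lower at unadjusted p under 0.05). Of 5 markers of glutamatergic neurons 0 were called higher and 1 lower there (1 and 1 at unadjusted p under 0.05 by the authors' Cuffdiff test). Their summed level was 369 FPKM in HDAC2 knockdown and 307 FPKM in control. Of this, Slc17a7 made 275 FPKM and 184 FPKM (q = 0.520 in the authors' deposited table). The list's median log2 fold change was -0.063, or -0.38 relative to the median gene. The marker called lower was Slc17a6, a vesicular glutamate transporter, with 7.80 FPKM in HDAC2 knockdown, against 17.7 FPKM in control (q = 1.21e-05 in the authors' deposited table). Of 6 markers of GABAergic neurons 0 were called by the authors' deposited table (2 higher and 2 lower at unadjusted p under 0.05). Their summed level was 173 FPKM in HDAC2 knockdown and 144 FPKM in control. The 2 higher were Gad1 (74.3 FPKM, against 43.9 FPKM in control) and Npy (5.16 FPKM, against 2.42 FPKM in control). Relative to the median gene 0 of these markers were higher and 2 lower. The 2 lower were Gad2 and Slc32a1, at an adjusted p of 0.00645 and of 0.00709 from the implied errors. The part of these in the members' values was not tested.

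The remaining members were not called in HDAC2 knockdown. Slitrk4, at 46.5 FPKM in HDAC2 knockdown and 32.2 FPKM in control, gave 0.53 ± 0.27 (q = 0.124 in the authors' deposited table). Lrrtm3, at 16.4 FPKM in HDAC2 knockdown and 11.3 FPKM in control, gave 0.54 ± 0.24 (q = 0.0703 in the authors' deposited table). Lrrtm1, Slitrk1, Slitrk2 and Slitrk3 had log2 fold changes of 0.11 to 0.29, with q of 0.416 to 0.718 in the authors' deposited table. Intervals were wide here: that of Slitrk1, for example, ran from 0.850 to 1.76-fold.

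The precision of the comparisons differed. The implied standard error was 0.098 to 0.11 in Sp3 knockdown and 0.24 to 0.29 in HDAC2 knockdown for 7 of the 9 members. It was smaller for Lrrtm4 and Slitrk2, at 0.062 to 0.086 in Sp3 and 0.10 to 0.11 in HDAC2 knockdown. Folds of the same size were therefore called in Sp3 knockdown and missed, or barely called, in HDAC2 knockdown. Lrrtm3 was 1.47-fold higher in Sp3 knockdown and 1.45-fold higher in HDAC2 knockdown, with q = 5.13e-07 and q = 0.0703 in the authors' deposited table. Slitrk5 was 1.65-fold higher in Sp3 knockdown and 1.66-fold higher in HDAC2 knockdown, with q = 3.72e-10 and q = 0.0414 in the authors' deposited table. Both comparisons share the control libraries, so these folds are not independent of each other.

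**Figure D2:**
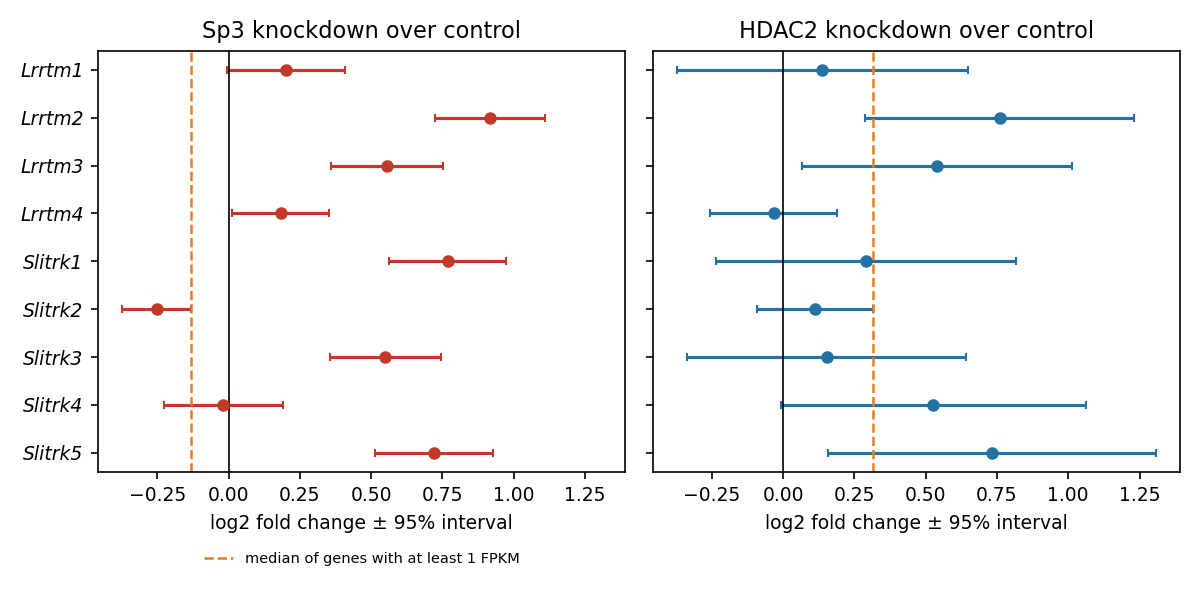
Log2 fold change over control of each gene (horizontal axis) in Sp3 knockdown, left, and HDAC2 knockdown, right. Points are the deposited values, bars the 95% intervals from the implied standard errors, the solid line is 0 and the dashed line the median gene (-0.13 and 0.32). The bars of Lrrtm2, Lrrtm3, Lrrtm4, Slitrk1, Slitrk3 and Slitrk5 lie to the right of both lines in Sp3 knockdown, while in HDAC2 knockdown only the bar of Lrrtm4 lies clear of the dashed line.

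The difference between the knockdowns was tested as Sp3 minus HDAC2 log2 fold change over 13277 genes, with a normal p from the summed implied errors and Benjamini-Hochberg adjustment. It was past adjusted p 0.05 for 28.7% of genes and for 1 member, Slitrk2 (-0.37 ± 0.12, at an adjusted p of 0.0125). Between comparisons each centred on its median gene, 14.7% of genes passed, Slitrk2 did not (0.083, at an adjusted p of 0.756), and 3 other members did. These were Lrrtm4 (0.67, at an adjusted p of 8.49e-05), Slitrk1 (0.93, at 0.0131) and Slitrk3 (0.85, at 0.0160), all higher in Sp3 knockdown relative to its median gene. For Lrrtm3 and Slitrk5 the uncentred intervals were -0.50 to 0.53 and -0.62 to 0.60, which are too wide to show that the knockdowns act alike. Differences between Slitrk genes, which no scaling moves, were also compared between the knockdowns. These intervals are not adjusted for the 16 pairs of members examined, and the X-linked and autosomal sets were formed after the values were seen. The largest change was that of Slitrk1 minus Slitrk4. It was 0.79 ± 0.15 in Sp3 knockdown and -0.24 ± 0.38 in HDAC2 knockdown, a change of 1.02 (interval 0.22 to 1.83). The interval left out 0 for 4 of the 6 pairs of an X-linked and an autosomal gene, the exceptions being both pairs with Slitrk5, and for 0 of the 6 Lrrtm pairs.

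Within the Lrrtm family the order of responses can be read in the same way. In Sp3 knockdown the interval left out 0 for 5 of the 6 pairs. Lrrtm2 was above Lrrtm3 by 0.36 (interval 0.088 to 0.64) and above Lrrtm4 by 0.73 (0.48 to 0.99), and Lrrtm1 and Lrrtm4 were within 0.018 of each other (-0.25 to 0.29). In HDAC2 knockdown it left out 0 for 2 pairs, Lrrtm2 above Lrrtm4 by 0.79 (0.27 to 1.32) and Lrrtm3 above Lrrtm4 by 0.57 (0.052 to 1.10). Here too the intervals are not adjusted for the 16 pairs of members examined.

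Lrrtm1, Lrrtm2 and Lrrtm3 each lie inside an alpha-catenin gene, on the opposite strand (GENCODE M21), and alpha-catenins link cadherins to actin. The files give each of the 3 genes the locus of its host: chromosome 6, 76831630 to 77929661 for Lrrtm1 and Ctnna2; chromosome 18, 35278565 to 35414429 for Lrrtm2 and Ctnna1; and chromosome 10, 62892845 to 64466415 for Lrrtm3 and Ctnna3 (mm9, as the files give it). Lrrtm2 and its host moved apart in Sp3 knockdown. Ctnna1 fell to 8.77 FPKM in Sp3 knockdown, against 19.1 FPKM in control (-1.13 ± 0.12, q listed as 0 in the authors' deposited table), and measured 21.95 FPKM in HDAC2 knockdown (q = 0.555 in the authors' deposited table). The ratio of Lrrtm2 to Ctnna1 FPKM was 2.16 in Sp3 knockdown, 0.773 in HDAC2 knockdown and 0.524 in control. The log2 fold change of Lrrtm2 exceeded that of Ctnna1 by 2.04 ± 0.15 in Sp3 knockdown (interval 1.75 to 2.34), and by 0.56 ± 0.34 in HDAC2 knockdown (-0.11 to 1.23).

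For the other nested pairs the intervals took in 0. Ctnna2, the neuronal alpha-catenin, had 63.0 FPKM in Sp3 knockdown, 78.8 FPKM in HDAC2 knockdown and 63.8 FPKM in control, and Lrrtm1 exceeded it by 0.22 ± 0.12 in Sp3 knockdown (interval -0.018 to 0.46), with a difference of -0.17 ± 0.27 in HDAC2 knockdown (-0.70 to 0.37). Ctnna3 was near the floor, at 0.304, 0.607 and 0.351 FPKM in the same order, and was not tested, so the difference for this pair, 0.76 ± 0.64 in Sp3 knockdown, had a wide interval (-0.49 to 2.01) that overlaps that of Lrrtm2 and Ctnna1. Annotated transcripts of Lrrtm2 and Ctnna1 share 65 sequences of 31 bases, counting both strands, while no 2 of the 9 members share any. The strand setting of the authors' counting is not given in the sources used here, so reads from the overlap of Lrrtm2 and Ctnna1 could have been split between them.

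**Figure D3:**
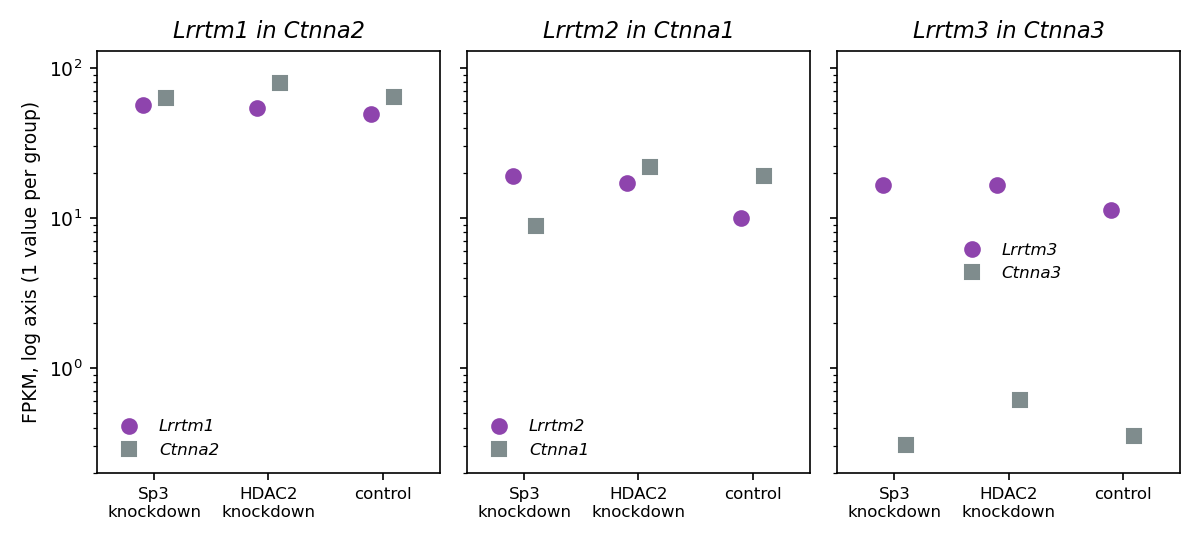
FPKM (vertical log axis, 1 value per group, no error) of Lrrtm1, Lrrtm2 and Lrrtm3 (circles) and of the alpha-catenin gene that holds each (squares), in Sp3 knockdown, HDAC2 knockdown and control. Lrrtm2 lies above Ctnna1 in Sp3 knockdown (18.9 and 8.77 FPKM) and below it in HDAC2 knockdown and in control.

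The members also differ in structure. In GENCODE M21 the coding part of all 5 Slitrk genes and of Lrrtm1 lies in 1 exon, that of Lrrtm2 in 2, and those of Lrrtm3 and Lrrtm4 in 3. Lrrtm4 spans 791267 bases there, but its locus in the deposited table (chromosome 6, 79968870 to 79974926) covers 6057 bases, so its FPKM describes only the model the authors used.

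Partners and relatives of the members were counted from lists, each beside the medians of 0.68 in Sp3 and -0.025 in HDAC2 knockdown for the 9 members relative to the median gene. Over all tested genes the authors' deposited table called 13.2% higher and 26.1% lower in Sp3 knockdown, and 24.6% higher and 3.6% lower in HDAC2 knockdown; relative to the median gene these shares were 20.2% and 17.6%, and 10.2% and 7.59%. Of the trans partners (neurexins, LAR-type phosphatases, glypicans and syndecans), 5 were higher and 4 lower of 14 tested in Sp3 knockdown, and 3 higher and 1 lower of 15 in HDAC2 knockdown, all by the authors' deposited table. Relative to the median gene 7 were higher and 3 lower in Sp3 knockdown and 3 higher and 3 lower in HDAC2 knockdown, with list medians of 0.30 and 0.062. Ptprd, the presynaptic receptor of several SLITRK proteins, rose to 86.8 FPKM in Sp3 knockdown, against 42.8 FPKM in control (q = 1.32e-06 in the authors' deposited table), and stood at 83.9 FPKM in HDAC2 knockdown (q = 0.156). Among heparan sulfate carriers Gpc4, a ligand of LRRTM4, fell to 18.7 FPKM in Sp3 knockdown, against 34.9 FPKM in control (q = 2.47e-14 in the authors' deposited table). Gpc1 rose to 58.4 FPKM in Sp3 knockdown, against 38.0 FPKM in control (q = 1.20e-06 in the authors' deposited table). Sdc2 was lower in both, with 10.7 FPKM in Sp3 knockdown, 18.5 FPKM in HDAC2 knockdown and 31.7 FPKM in control (q listed as 0 and q = 0.00401 in the authors' deposited table). The 3 partners called higher in HDAC2 knockdown were also heparan sulfate carriers. Sdc1 had 12.7 FPKM in HDAC2 knockdown and 3.10 FPKM in control (q = 8.14e-14 in the authors' deposited table). Gpc6 had 9.20 FPKM in HDAC2 knockdown and 3.49 FPKM in control (q = 8.95e-12 in the authors' deposited table). Gpc2 had 3.73 FPKM in Sp3 knockdown, 13.0 FPKM in HDAC2 knockdown and 5.47 FPKM in control, called lower (q = 0.0144) and higher (q = 2.21e-05) in the authors' deposited table. Its lower call in Sp3 knockdown did not pass relative to the median gene (-0.42, with an adjusted p of 0.0658 from the implied errors).

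Of 28 tested genes for other leucine-rich-repeat surface proteins of neurons, 15 were higher and 1 lower in Sp3 knockdown, and 6 higher and 0 lower in HDAC2 knockdown, by the authors' deposited table. The count for HDAC2 knockdown is near the 24.6% of all tested genes called higher there, and so is that of the other postsynaptic organizers. Relative to the median gene these became 16 and 1, and 2 and 0, with medians of 0.49 and -0.11. Ntrk3, a synapse-organizing receptor of neurotrophin-3 that also binds PTPRS, had 80.3 FPKM in Sp3 knockdown and 57.6 FPKM in control (q = 1.78e-13 in the authors' deposited table). Slit2, a secreted guidance cue, had 25.3 FPKM in Sp3 knockdown, 18.5 FPKM in HDAC2 knockdown and 11.6 FPKM in control (q listed as 0 and q = 0.0424 in the authors' deposited table). Relative to the median gene the HDAC2 knockdown call of Slit2 did not pass (0.36, with an adjusted p of 0.423 from the implied errors). Elfn1 had 1.92 FPKM in Sp3 knockdown, 6.15 FPKM in HDAC2 knockdown and 3.26 FPKM in control, called lower and higher in the authors' deposited table. Its higher call in HDAC2 knockdown did not pass relative to the median gene (0.60, with an adjusted p of 0.0692 from the implied errors). Of 15 other postsynaptic organizers, 4 were higher in Sp3 and 3 in HDAC2 knockdown and 0 lower by the authors' deposited table. Relative to the median gene 6 were higher in Sp3 knockdown and 2 higher and 1 lower in HDAC2 knockdown. Cbln2, which encodes a secreted neurexin ligand, was higher in both, with 12.6 FPKM in Sp3 knockdown, 14.2 FPKM in HDAC2 knockdown and 6.53 FPKM in control (q = 3.43e-09 and q = 3.97e-05 in the authors' deposited table). Of the PSD-95 family, whose PDZ domains bind LRRTM tails, Dlg2 rose to 86.4 FPKM in Sp3 knockdown, against 55.7 FPKM in control (q = 0.00177 in the authors' deposited table). Dlg1 fell to 30.7 FPKM in Sp3 knockdown, against 33.9 FPKM in control (q = 0.0245 in the authors' deposited table), which relative to the median gene was -0.0066. For HDAC2 knockdown the authors' deposited table called 0 of the 3 tested (0 at unadjusted p under 0.05), and Dlg3 was lower relative to the median gene (-0.46 ± 0.090, at an adjusted p of 1.07e-05).

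**Figure D4:**
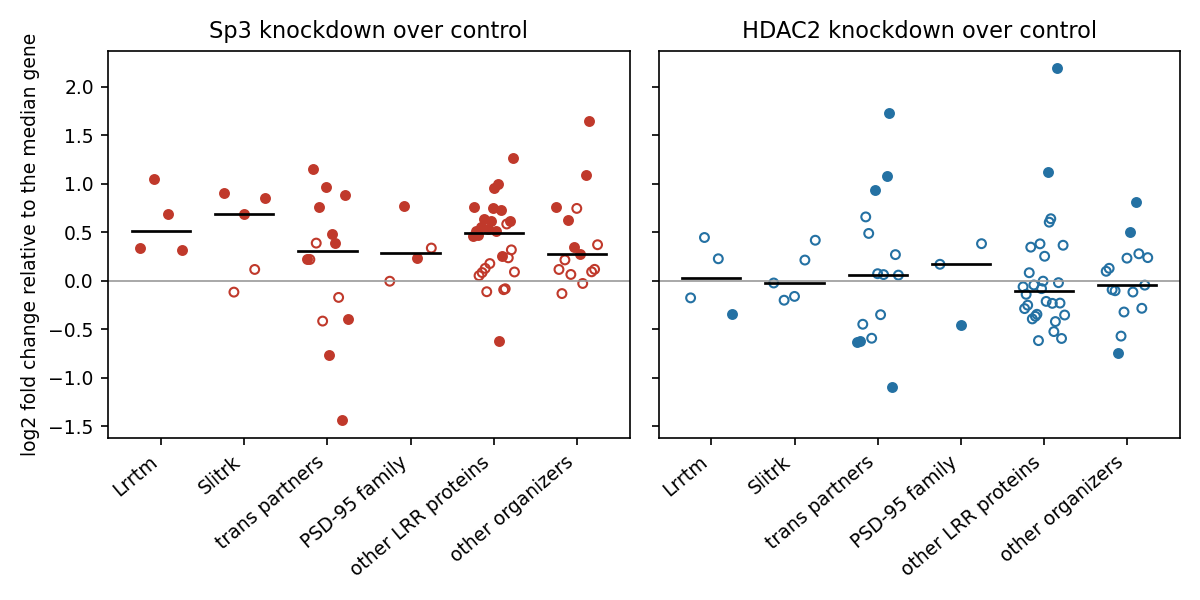
Difference from the median gene in log2 fold change (vertical axis) in Sp3 knockdown, left, and HDAC2 knockdown, right, for the Lrrtm and Slitrk members and the related lists (LRR, leucine-rich repeat). Each point is a tested gene, filled where its adjusted p is under 0.05, and bars are medians: 0.51 and 0.68 for Lrrtm and Slitrk in Sp3 knockdown, 0.023 and -0.025 in HDAC2 knockdown.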

How the data were processed

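RNA sequencing libraries, 2 per group, were built with an Illumina TruSeq kit per the labels' protocols, and TopHat, Bowtie, Cuffdiff and the build mm9 are named in the submitters' processing notes. Not given in the sources used here are the annotation, strand setting and tool versions. Per the file headers, the authors deposited for each knockdown against control 1 FPKM per group, a log2 fold change, a statistic (a score with no set range) and its p-value and q-value. FPKM keeps no read count, so depth and counting error are unknown. Control FPKM was identical in both tables for 100% of genes.

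A gene was called where the authors' deposited table gives status OK and a q under 0.05. The sign of the statistic is opposite to that of the fold in every gene compared and gave the deposited p-value as a normal deviate within 2.79e-06. Implied standard errors are log2 fold change over the reversed statistic, and values over 5 were treated as missing (7 genes per table). Centring subtracted the median log2 fold change of genes of at least 1 FPKM in either group, with a normal p and Benjamini-Hochberg adjustment over 13539 (Sp3) and 13481 (HDAC2) genes. The difference of knockdowns added squared errors, so shared control error counts in both and the error is overstated. These steps were run on simulated data, with the implied errors taken as true and drawn independently for each knockdown. That check therefore does not cover the shared control libraries or the spread between libraries. Python 3.11.15, pandas 2.3.3, NumPy 2.4.6, SciPy 1.17.1 and Matplotlib 3.10.9 were used. Members, gene lists and tests were chosen with earlier results of these data known. Named genes are the members, their hosts, both targets, and from each list genes called alike in both tables or of smallest p, of which a part is given. The markers named were chosen after their values were seen. Alternatives varied scaling, thresholds, minimum fold, an FPKM floor and pseudocounts. The genes of most similar response to a member are not reported here.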

Additional observations from a re-analysis of the deposited data

How the results depend on the processing

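The scaling decided most changes of call. In Sp3 knockdown the members higher numbered 5 as deposited and 7 with centring or upper-quartile scaling, and those lower numbered 1 and 0. In HDAC2 knockdown the members higher numbered 2 as deposited and 0 with either scaling, and those lower numbered 0 and 1. Members that differed between the knockdowns numbered 1 as tested, 3 with centring and 0 at adjusted p under 0.01. A minimum of 1.5-fold left 3 members higher and 0 lower in Sp3 knockdown, and q under 0.01 left 1 higher in HDAC2 knockdown. Signs that turned with centring and with upper-quartile scaling were those of Slitrk4 in Sp3 knockdown (0.11 and 0.096) and, in HDAC2 knockdown, of Lrrtm1 (-0.18 and -0.18), Slitrk1 (-0.025 and -0.026), Slitrk2 (-0.20 and -0.20) and Slitrk3 (-0.16 and -0.16), none of which was called there on any scale. The cause of the displaced medians was not tested. An FPKM floor of 1 and q under 0.10 kept each count within 1.5 times, and pseudocounts of 0.1 and 1 moved all 18 log2 fold changes by less than their standard error. No paired analysis was possible because the tables hold 1 value per group, and for the same reason leaving out a library was not run.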
